A study of Rattus norvegicus with 12 samples.

Results

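Small RNA of serum exosomes was compared between rats given ethylene glycol monomethyl ether (EGME) and rats given its water vehicle. The comparison took 6 of the 12 libraries of a study of testicular toxicants, 3 labelled EGME and 3 labelled water, chosen by those labels and not by any measured value. The rats were male Sprague-Dawley animals of 9 weeks. EGME was given once by mouth at 2000 mg/kg in 10 mL/kg of water, the control rats received the water alone, and blood was drawn 24 h after the dose. Vesicles were pelleted at 208000 g for 70 min from 2.7 mL of serum that had first been cleared at 16500 g for 20 min. A pellet of this kind can also carry RNA bound to protein particles. Whether every library had its own rat is not stated in the titles, and p-values here cover no more than the scatter among the 6 libraries, part of which may be technical.

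EGME is a glycol ether solvent that the body oxidises to methoxyacetic acid, which damages dividing tissues and above all the spermatocytes of the testis. The thymus and the bone marrow are other known targets. Serum vesicles hold RNA shed by many tissues and blood cells, chiefly mature miRNAs, fragments of tRNA and fragments of other short structural RNAs. A miRNA pairs with its target mRNAs mainly through its seed, bases 2 to 8 from the 5′ end. In a mixture of this kind, fewer vesicles from a source and less of an RNA in each vesicle cannot be told apart.

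The raw table listed 3280 features, and the 6 libraries held between 608892 and 1235814 assigned counts, with a read for 1314 to 1579 features. A count of 0 therefore allows a level of up to 2.43 to 4.93 CPM, depending on the library, where CPM is a count per 1000000 assigned counts. The chi-square per degree of freedom between pairs of libraries ran from 40.8 to 347 within groups and from 157 to 662 between them, so the ranges overlapped and the highest values were between groups. It was lowest for EGME libraries 1 and 3, at 40.8, far above what counting error alone gives, so all 6 were counted as separate libraries. EGME library 2 stood apart from the others of its group, with a chi-square per degree of freedom of 347 against EGME library 1 and a scaling factor of 0.684. Its value against water library 2 was lower, at 189. Water library 1 also lay apart, at 199 and 279 from water libraries 2 and 3, which were at 56.9 from each other. Its value against EGME library 3 was 157. Results that rest on a single library are given with their values without it.

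The mature miRNAs gave the most calls, and their sequences are printed for the 11 of 13 called miRNAs that RefSeq lists on build GRCr8 under the same name. Over the whole table, 376 of 411 listed and 120 of 136 tested miRNAs had a sequence. The seed is in capitals.

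miR-128-3p: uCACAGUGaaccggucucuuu
miR-423-5p: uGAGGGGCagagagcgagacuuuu
miR-10a-5p: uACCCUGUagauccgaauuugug
miR-3559-3p: aUGUAGUAcugagucugucgug
let-7d-3p: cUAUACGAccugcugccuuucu
let-7b-5p: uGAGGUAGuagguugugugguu
miR-22-3p: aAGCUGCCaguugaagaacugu
miR-215: aUGACCUAugauuugacagaca
miR-140-3p: uACCACAGgguagaaccacgg
miR-93-5p: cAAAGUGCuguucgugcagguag
miR-455-3p: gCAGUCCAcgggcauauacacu

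The first 7 rose and the last 4 fell, and the 11 seeds are all different. RefSeq places miR-10a-5p at chr10:81779730-81779752 on the plus strand, 1338 bases from Hoxb4 in the HOX B cluster. It places miR-423-5p at chr10:62412317-62412340 on the minus strand, within the span of Nsrp1. The sequence of miR-128-3p has 2 loci, chr8:120963807-120963827 on the minus strand within the span of Arpp21 and chr13:42251933-42251953 on the plus strand within that of R3hdm1, and the counts do not separate them. Of the miRNAs that fell, miR-215 lies at chr13:99383003-99383024 on the plus strand within the span of Iars2. The locus of miR-140-3p is chr19:52375353-52375373 on the plus strand within the span of Wwp2. The loci of miR-93-5p and miR-455-3p lie within the spans of Mcm7 and Col27a1.

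Each RNA class was compared on its own scale, so that a value is relative to the other RNAs of its class. In these fits edgeR called 28 of 320 tested features at a Benjamini-Hochberg adjusted p under 0.05, which is 8.75%, with 18 higher (5.62%) and 10 lower (3.12%) after EGME. The calls were 13 mature miRNAs, 9 tRNA genes, 3 transcripts of the class named misc_RNA, 2 piRNAs and 1 rRNA transcript. None was called among 17 miRNA hairpin transcripts, 10 snoRNAs and 11 snRNAs, of which 2, 2 and 0 had an unadjusted p under 0.05. The DESeq2 Wald test called 9 of the 28, and limma on the authors' normalized values called 1, miR-215. Leaving out water library 1, 2 or 3 gave 18, 9 or 16 calls, of which 13, 9 and 13 were among the 28. Leaving out EGME library 1, 2 or 3 gave 14, 31 or 7 calls, of which 11, 17 and 6 were among the 28. With all classes in 1 fit edgeR called 0 of 330 features (0%). There the smallest adjusted p was 0.0906, 59 features had an unadjusted p under 0.05, and DESeq2's Wald test called 20. Leaving out EGME library 2 gave 60 calls (18 higher, 42 lower), and leaving out water library 3 gave 1.

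Among mature miRNAs edgeR called 13 of 136 (9.56%), 8 of them higher (5.88%) and 5 lower (3.68%), and the median difference over all 136 was -0.04 on the log2 scale. The count was 8 without water library 1 (6 of them among the 13), 5 without water library 2, 4 without EGME library 1 and 5 without EGME library 3. The most abundant miRNA was miR-148a-3p, which made up 31.3% to 35.9% of the miRNA counts in the water libraries and 29.1% to 37.0% in the EGME libraries. The ranking of miRNAs was also much alike in all libraries, with Spearman's rho from 0.959 to 0.976 within groups and from 0.953 to 0.966 between them (136 miRNAs, a description across features). Levels below are TMM-scaled CPM of the miRNA total.

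The clearest rises were those of miR-128-3p, miR-423-5p and miR-10a-5p. The brain-rich miRNA miR-128-3p was at a level of 10841, 4918 and 9184 in water libraries 1 to 3 and 29475, 12216 and 28998 in EGME libraries 1 to 3. The groups did not overlap, but the lowest EGME library lay close to the highest water library. The log2 rise was 1.50 (SE 0.280, edgeR adjusted p = 9.45e-05). Without EGME library 1 it was 1.26 and no longer passed (adjusted p = 0.128). With the scaling of all classes in 1 fit it was 1.66 (edgeR adjusted p = 0.114).

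For miR-423-5p, a miRNA found in many tissues, the level was 1028, 602 and 1019 with water and 3072, 1361 and 2332 with EGME. Every EGME library lay above every water library. The rise was 1.35 (SE 0.272, edgeR adjusted p = 0.000109). Without water library 2, the lowest, it was 0.98 and the call was lost (adjusted p = 0.0555).

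The level of miR-10a-5p, from the HOX B cluster, was 1049, 1557 and 2554 with water and 4866, 4173 and 3844 with EGME. All EGME libraries lay within a narrow range above the water libraries. The rise was 1.32 (SE 0.273, edgeR adjusted p = 0.00013), and the call held with any 1 library left out (highest adjusted p 0.0496). It also had the smallest p when all classes were fitted together, at 1.56 (SE 0.363, edgeR adjusted p = 0.0906).

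Another 5 miRNAs rose by less. The level of let-7d-3p, the lesser-known arm of a let-7 hairpin, was 574, 550 and 946 with water and 1272, 1277 and 1241 with EGME (0.88, SE 0.266, edgeR adjusted p = 0.0205). Its EGME libraries were nearly equal and all above the water libraries. The level of miR-22-3p, made in many tissues, was 467, 382 and 679 with water and 938, 969 and 844 with EGME (0.85, SE 0.262, adjusted p = 0.0205), again without overlap. That of miR-3559-3p was 223, 226 and 261 with water and 567, 370 and 418 with EGME (0.93, SE 0.288, adjusted p = 0.0205). The groups overlapped in the other two. The level of miR-320-3p, a miRNA processed without Drosha, was 2141, 1371 and 2711 with water and 4407, 2297 and 5340 with EGME (0.95, edgeR adjusted p = 0.0155). That of let-7b-5p, of the let-7 family that restrains proliferation, was 4555, 4062 and 5126 with water and 11086, 4173 and 9635 with EGME (0.86, edgeR adjusted p = 0.0205). In both, EGME library 2 lay among the water libraries.

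The fall of miR-215 was the call that held longest. This relative of miR-192 responds to p53 in human cells. Its level was 12878, 9785 and 13442 with water and 3790, 5456 and 6075 with EGME, so the highest EGME library was well below the lowest water library. On the log2 scale it fell by 1.24, with an SE of 0.268 and an edgeR adjusted p of 0.000318. Of the 13 called miRNAs it was the 1 that passed in all 15 alternatives, limma on the authors' normalized values included (highest adjusted p 0.0347).

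The level of miR-140-3p, an arm of a hairpin best known from cartilage, was 23698, 29927 and 40011 with water and 11565, 18955 and 17503 with EGME. It was the most abundant of the called miRNAs in the water libraries, and the groups did not overlap. It fell by 0.96 (SE 0.247, edgeR adjusted p = 0.00483). It no longer passed when water library 3 was left out (-0.84, adjusted p = 0.105) or EGME library 1 (-0.82, adjusted p = 0.0769).

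The remaining falls were smaller or rested on few reads. The level of miR-93-5p, which shares a primary transcript with miR-106b and miR-25, was 1927, 2581 and 1893 with water and 988, 1619 and 932 with EGME (-0.86, SE 0.267, edgeR adjusted p = 0.0212). That of miR-150-5p, a miRNA of mature lymphocytes, was 2770, 2303 and 2548 with water and 1492, 1865 and 986 with EGME (-0.81, SE 0.268, edgeR adjusted p = 0.0311). Neither pair of groups overlapped. The scarce miR-455-3p had 13, 11 and 14 counts with water and 7, 1 and 3 with EGME (-1.76, SE 0.602, edgeR adjusted p = 0.0412).

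These 8 smaller changes depended on single libraries. With 1 library left out, miR-93-5p kept its call without water library 1, water library 3 or EGME library 2, and miR-150-5p without water library 2, water library 3 or EGME library 2. The calls of let-7d-3p and miR-22-3p were kept without water library 3, those of miR-320-3p and let-7b-5p without EGME library 2, and that of miR-455-3p without EGME library 1. In all other fits of this kind that tested them the calls were lost, and miR-3559-3p kept its call in 0 of 6, with adjusted p up to 0.37 over the 8 miRNAs. Just outside the threshold were miR-99b-5p (0.76, edgeR adjusted p = 0.0527), miR-455-5p (-1.28, 0.0565), the red cell miRNA miR-486 (0.57, 0.0633) and let-7a-5p (0.70, 0.0729).

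**Figure D1:**
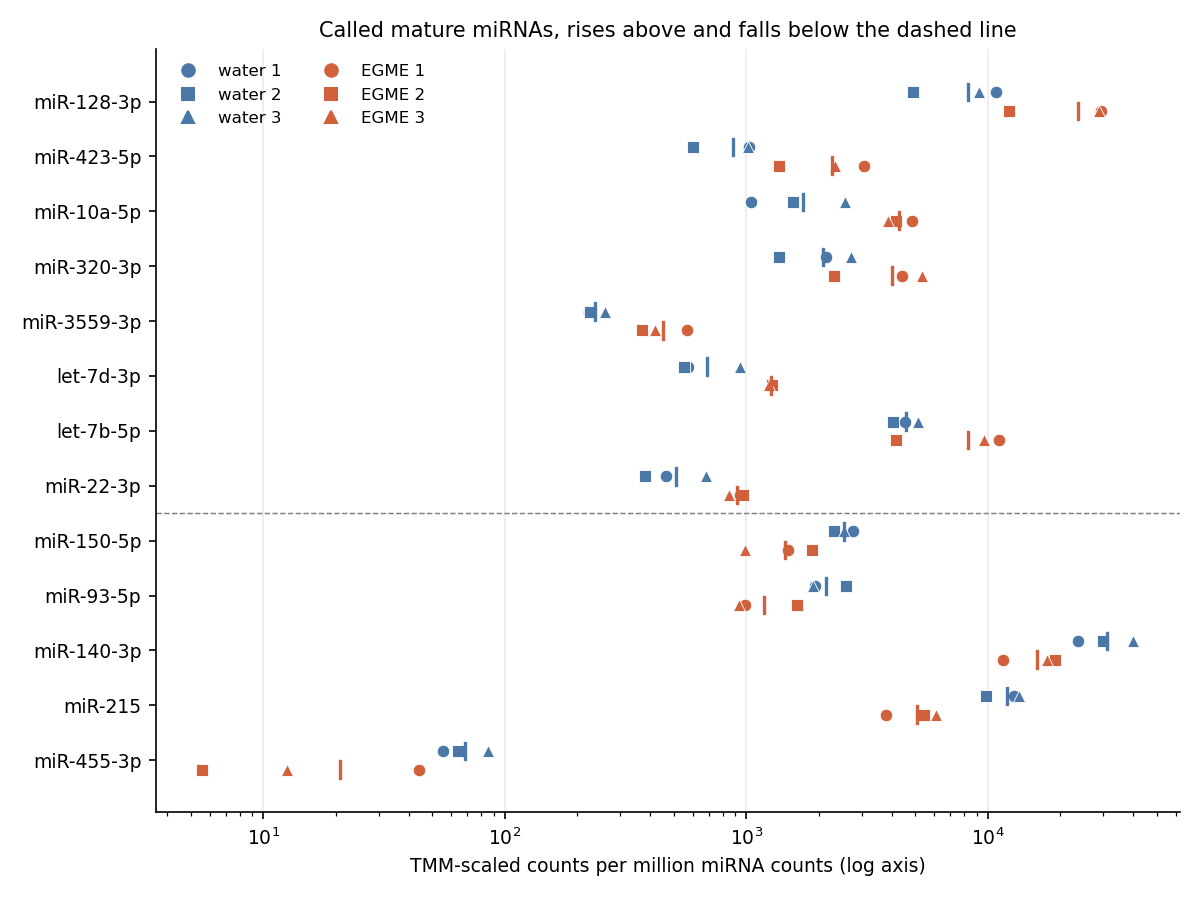
Level of the 13 called mature miRNAs in each of the 6 libraries, as TMM-scaled CPM of the miRNA total on a log axis. Points are libraries, short vertical bars are group means, and the 8 miRNAs that rose stand above the dashed line; the EGME and water libraries overlap in miR-320-3p and let-7b-5p.

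Groups without overlap were not rare. They occurred in 34 of the 136 tested miRNAs, or 25%, and in 11 of the 13 that were called, a feature that a small p in the same libraries selects for.

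Relatives that share a seed did not all move together. The tested partner of miR-215 with seed UGACCUA is miR-192-5p, at 3074, 2141 and 3318 with water and 1945, 2655 and 2014 with EGME (-0.37, edgeR adjusted p = 0.49), with overlapping groups. Of the 4 tested miRNAs with seed AAAGUGC, miR-93-5p fell, miR-106b-5p was at -1.10 (edgeR adjusted p = 0.127), miR-20a-5p at -0.19 (adjusted p = 0.758) and the fourth at 0.05. The primary transcript of miR-93-5p and miR-106b-5p also holds miR-25-3p, at 0.36 (edgeR adjusted p = 0.473), and miR-106b-3p, at 0.12 (adjusted p = 0.839). Its tested members thus did not all fall. In the let-7 family 1 of 9 members passed (11.1%, against 9.56% of all miRNAs), and the 9 ranged from -0.22 to 0.86 with 5 higher and 4 lower. Its most abundant members let-7i-5p (-0.05, edgeR adjusted p = 0.896), let-7f-5p (-0.09, 0.839) and let-7g-5p (-0.22, 0.695) were near or below 0, while let-7a-5p (0.70), let-7e-5p (0.70) and let-7c-5p (0.64) lay near let-7b-5p. With the scaling of all classes 7 of the 9 were higher.

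For 3 of the called miRNAs, RefSeq lists another arm of the same hairpin that was tested. By their names miR-423-3p, miR-150-3p and miR-455-5p are also other arms of called miRNAs, though RefSeq has no entry under those names. They were tested and not called, with miR-455-5p at -1.28 (edgeR adjusted p = 0.0565). The counts of miR-140-5p were 46, 43 and 36 with water and 30, 45 and 39 with EGME (-0.14, SE 0.340, edgeR adjusted p = 0.839). Beside let-7d-3p, the arm let-7d-5p was at 0.40 (SE 0.267, edgeR adjusted p = 0.422). The 5p arm of miR-3559 had 84, 29 and 31 counts with water and 37, 43 and 46 with EGME, also with overlap. The difference between the arms was not tested.

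Read by the tissue or cell in which they are known to be abundant, the germ cell and testis miRNAs were almost missing. Of 26 on the list 15 were in the table and 0 had enough counts to be tested. Their summed counts were 24, 23 and 14 with water and 20, 19 and 29 with EGME. As a share of miRNA counts this was 0.00903% to 0.0135% with water and 0.00995% to 0.0125% with EGME, and the exact 95% binomial intervals of the 6 libraries together spanned 0.00494% to 0.0202%. The groups overlapped in this summed share. The meiotic and spermatid miRNA miR-34c-5p had 6, 4 and 3 counts with water and 6, 7 and 9 with EGME, and miR-741-3p of the X-linked testis cluster had 4, 3 and 2 against 7, 4 and 3. Other members went the other way, such as miR-184 with 1, 9 and 0 against 1, 1 and 1, and miR-871-3p with 3, 2 and 2 against 1, 2 and 2. All of these lie near the floor.

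Lymphocyte miRNAs took a smaller share of the miRNA counts after EGME. Their sum was 0.713%, 0.692% and 0.741% with water and 0.504%, 0.516% and 0.420% with EGME, without overlap. Sums without overlap were not rare among the lists. The kidney and epithelial, brain, p53-responsive and miR-30 lists had them too. Of 8 tested lymphocyte members 7 were lower (median -0.49), against 73 of 136 for all tested miRNAs (median -0.04). The 1 that passed was miR-150-5p (12.5% of the list, against 9.56% of all miRNAs). Of the others, miR-181a-5p was at 856, 822 and 1080 with water and 686, 583 and 514 with EGME (-0.63, edgeR adjusted p = 0.115), and miR-142-3p at -0.49 (adjusted p = 0.235). With the scaling of all classes 6 of the 8 were lower, and with upper quartile scaling of all classes the median was -0.02.

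Kidney and epithelial miRNAs took a larger share, at 0.154%, 0.210% and 0.368% of the miRNA counts with water and 0.591%, 0.504% and 0.440% with EGME. All 6 tested members were higher, with a median of 0.67, but 1 passed (16.7% of the list, against 9.56% of all miRNAs). It was miR-10a-5p, which carried most of the sum. The list member miR-182, of the epithelial and sensory miR-183 cluster, was at 133, 104 and 158 with water and 233, 353 and 121 with EGME (0.82, edgeR adjusted p = 0.146). Without EGME library 1 or without EGME library 2, 5 of the 6 were higher.

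The brain list was carried by miR-128-3p alone. Its other 6 listed members had at most 9 counts in any library, and miR-9a-5p had 2, 3 and 1 counts with water and 3, 1 and 2 with EGME. The 2 tested members of the p53-responsive list were miR-215 and miR-192-5p, while miR-34a-5p had at most 3 counts in a library.

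Red blood cell miRNAs had 4 members higher and 8 lower of 12 (median -0.18), with miR-451-5p at -0.36 (edgeR adjusted p = 0.49). The 1 call was miR-93-5p (8.33% of the list, against 9.56% of all miRNAs). Their summed share overlapped, from 9.0% to 12.7% with water and from 11.3% to 14.6% with EGME. Platelet miRNAs had 7 higher of 11 (median 0.34, 9 higher with the scaling of all classes). Within that list miR-22-3p rose as the 1 call (9.09%), and the endothelial and platelet miRNA miR-126a-3p was at 0.68 (edgeR adjusted p = 0.0911). The liver-specific miR-122-5p varied widely in both groups, at 5116, 1620 and 1947 with water and 5779, 7293 and 3038 with EGME (0.89, SE 0.410, edgeR adjusted p = 0.208). The liver list as drawn up had 2 higher and 4 lower of 6, with miR-455-3p the 1 call (16.7%). It includes both arms of miR-455, which is not specific to the liver, so that call is not read as a liver signal. The lower members were miR-455-3p, miR-455-5p (-1.28), miR-192-5p (-0.37) and miR-101a-3p (-0.44).

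In the other lists the medians lay near that of all miRNAs. Myeloid miRNAs had 3 of 6 higher (median 0.05), muscle miRNAs 1 of 3 (-0.13), inflammation-linked miRNAs 2 of 5 (-0.05) and the miR-30 family 2 of 7 (-0.05), with 0 calls by edgeR in each. The summed share of the miR-30 family was 2.29%, 2.39% and 2.32% with water and 2.2%, 2.21% and 2.19% with EGME, a small difference without overlap. The vascular and fibroblast list had 4 of 9 higher (median -0.10) with miR-140-3p the 1 call (11.1%). The miR-17-92 and related clusters had 5 of 10 higher (median 0.00) with miR-93-5p the 1 call (10.0%). Of all tested miRNAs 9.56% were called. In muscle, miR-206-3p was at 1.06 (SE 0.531, edgeR adjusted p = 0.203).

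**Figure D2:**
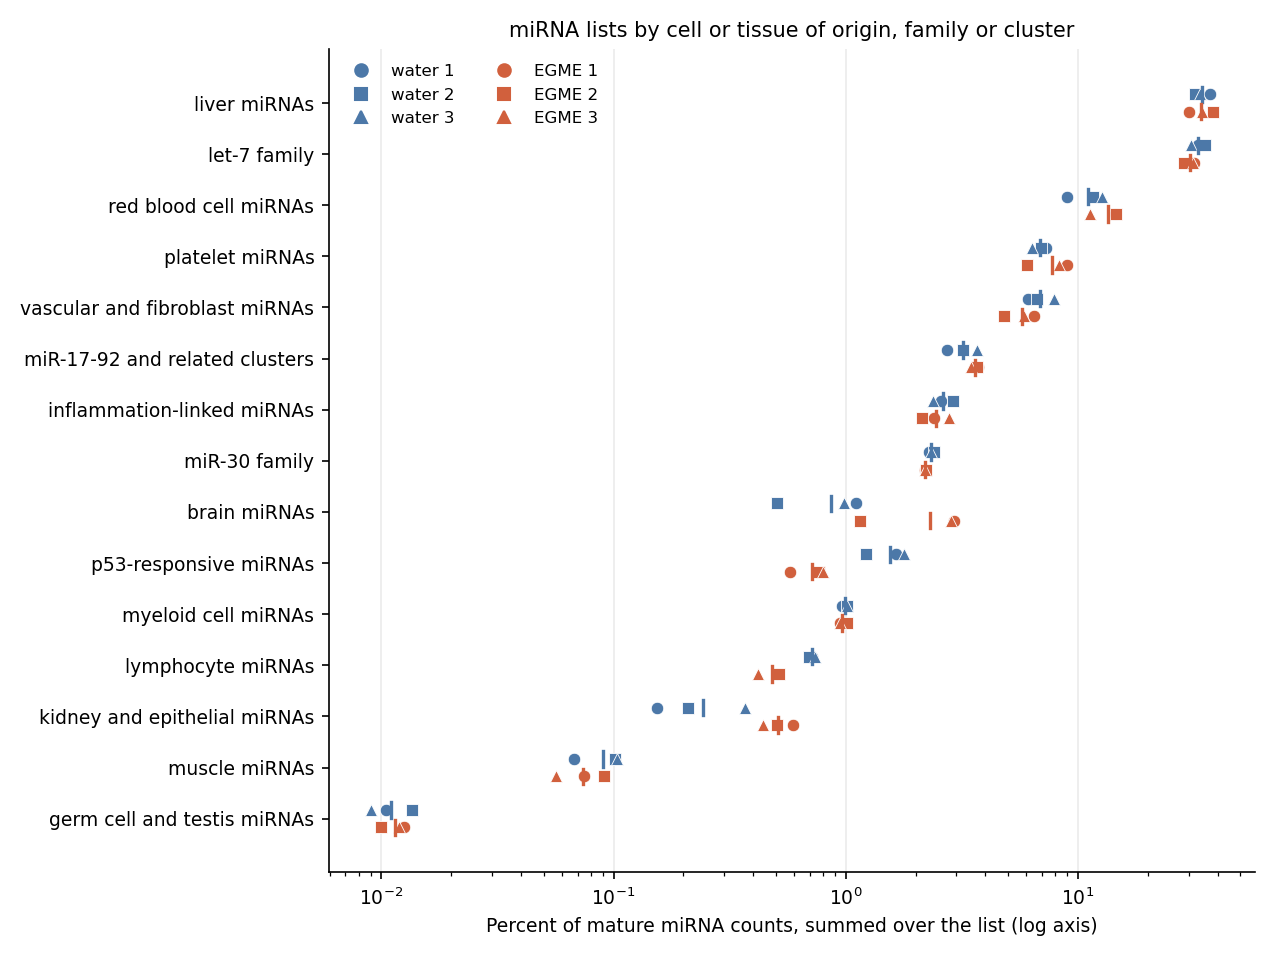
Summed share of mature miRNA counts held by each miRNA list in the 6 libraries, in percent on a log axis. Points are libraries and short vertical bars are group means. The lymphocyte, p53-responsive and miR-30 lists lie lower and the kidney and epithelial and brain lists higher in all 3 EGME libraries. The germ cell and testis list is at 0.00903% to 0.0135% in all 6.

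The direction of the tRNA fragments depended on the scale. As a share of all assigned counts they made up 27.7%, 41.7% and 45.6% of the water libraries and 13.8%, 30% and 16.0% of the EGME libraries. EGME library 2 lay among the water libraries (exact permutation p = 0.2, two-sided, where 3 against 3 libraries cannot give less than 0.1). With near-identical copies counted once the shares were 5.16%, 9.32% and 10.7% with water and 2.2%, 5.71% and 2.62% with EGME, a difference of -4.87 percentage points against -18.4 as deposited. The class itself is smaller when copies are counted once. Set against the miRNA total, the log2 difference was -1.16 as deposited and -1.17 with copies counted once, with overlapping groups in both. With all classes in 1 fit, 67 of 74 tested tRNA genes were lower, with a median of -0.85. Scaled against each other, 49 were higher and 25 lower, with a median of 0.18. That direction turned with near-identical copies counted once (17 higher and 21 lower of 38, median -0.04) and with no filter (12 higher, 62 lower, median -0.53). The median also changed sign between the scales, by less, for miRNA (-0.04 on its own scale, 0.13 over all classes), snoRNA (0.16 and -0.38), snRNA (0.03 and -0.12) and misc_RNA (0.06 and -0.02).

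**Figure D3:**
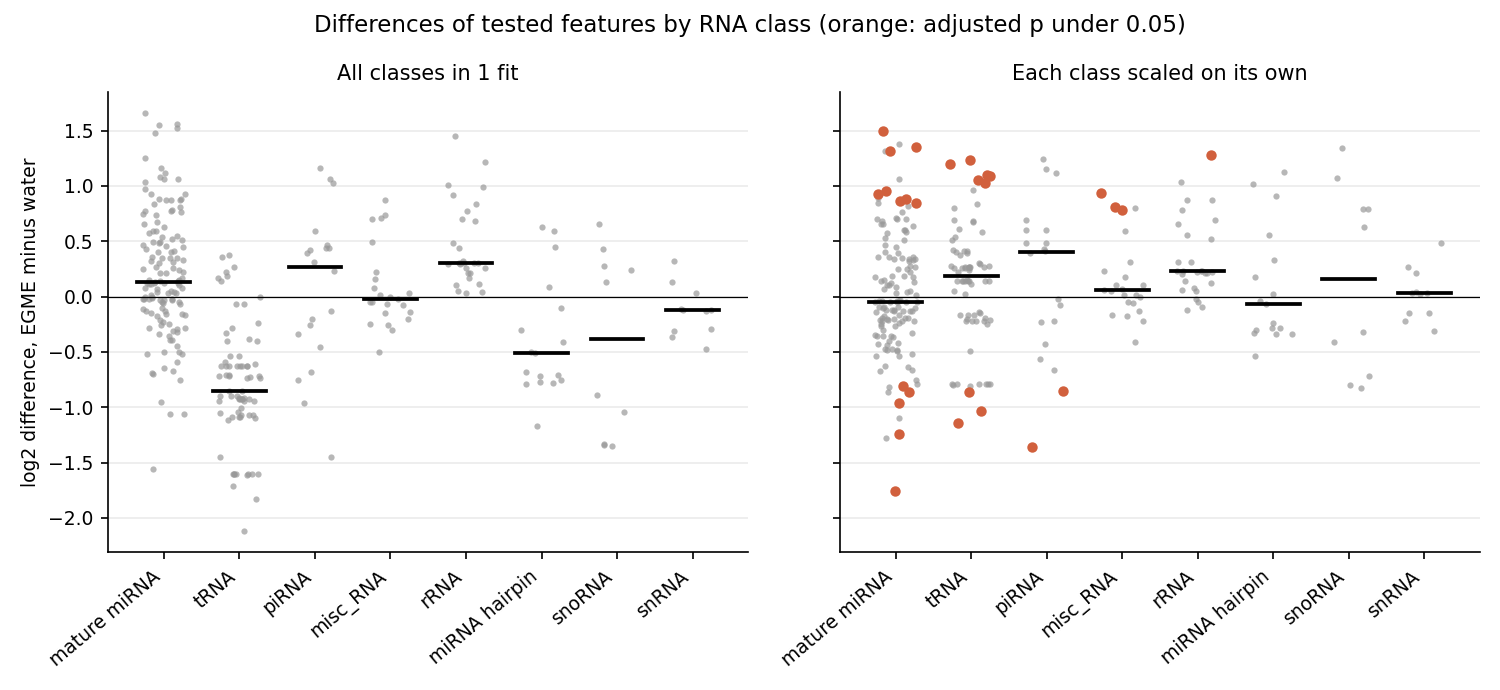
log2 difference, EGME minus water, of every tested feature by RNA class, with all classes in 1 fit on the left and each class scaled on its own on the right. Points are features, black bars are class medians and orange points are calls; the tRNA median lies at -0.85 on the left and 0.18 on the right, and calls occur on the right only, 28 in all.

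The valine tRNA fragments were lower on both scales. All 10 tested valine genes were lower, with a median of -0.79 among tRNAs and -1.60 over all classes, and every valine gene tested was lower in each of the 15 alternatives on both scales. Their summed share of tRNA counts was 1.74%, 1.50% and 1.11% with water and 0.782%, 0.659% and 0.897% with EGME, without overlap. The 10 genes hold only 3 distinct count profiles, since the counts of 8 of them are nearly the same in every library and may come from shared reads.

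Of these, 1 ValCAC gene, trna1607, was at 857, 784 and 485 CPM of the tRNA total with water and 336, 376 and 321 with EGME. It fell by 1.03 (SE 0.195, edgeR adjusted p = 7.51e-05). It did not pass without EGME library 1 (-0.98, adjusted p = 0.0769), without EGME library 3 (-0.94, 0.0823), with upper quartile scaling (-0.86, 0.476), with no filter (-1.60, 0.119) and with limma (-1.09, 0.25). A ValAAC gene, trna3670, was at 330, 340 and 252 with water and 163, 172 and 171 with EGME (-0.86, SE 0.236, edgeR adjusted p = 0.0109), and its call was lost without water library 1 or EGME library 3 (adjusted p up to 0.174), with upper quartile scaling (-0.68, adjusted p = 0.675), with no filter (-1.44, 0.161), with no scaling factors (-0.96, 0.0577) and with limma (-0.94, 0.286). The 8 copies, represented by trna1308, were at -0.79 (SE 0.382, edgeR adjusted p = 0.183).

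The LeuTAG gene also fell among tRNAs (-1.14, SE 0.336, edgeR adjusted p = 0.0201), from 19, 60 and 30 counts with water to 7, 8 and 7 with EGME. The groups of chr1.trna12832-LeuTAG overlapped as CPM of the tRNA total, at 70.4, 157 and 71.3 with water and 75.9, 28.6 and 45.9 with EGME. Its call was kept in 1 of 6 fits with a library left out, the one without EGME library 1.

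Among 74 tested tRNA genes 9 were called (12.2%), 3 lower (4.05%) and 6 higher (8.11%). The 6 that rose were all scarce. They were 3 LysCTT genes (1.20, 1.05 and 1.03), 2 GlnCTG genes (1.10 and 1.09) and 1 GluCTC gene (1.23), with edgeR adjusted p from 0.0109 to 0.0412 and at most 24 counts in any library. The GluCTC gene had 15, 13 and 8 counts with water and 9, 20 and 13 with EGME. None of the 6 passed with near-identical copies counted once or with upper quartile scaling, and on the scale of all classes they lay between 0.14 and 0.38. Each was lost without 3 or more of the 6 libraries taken out in turn (adjusted p up to 0.445). Glycine tRNA, which held 94.0% to 97.7% of all tRNA counts, showed no call in 13 genes. The GlyGCC gene trna2238 had 28071, 45849 and 43707 counts with water and 9550, 42949 and 15833 with EGME (-0.63 over all classes, edgeR adjusted p = 0.557).

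**Figure D4:**
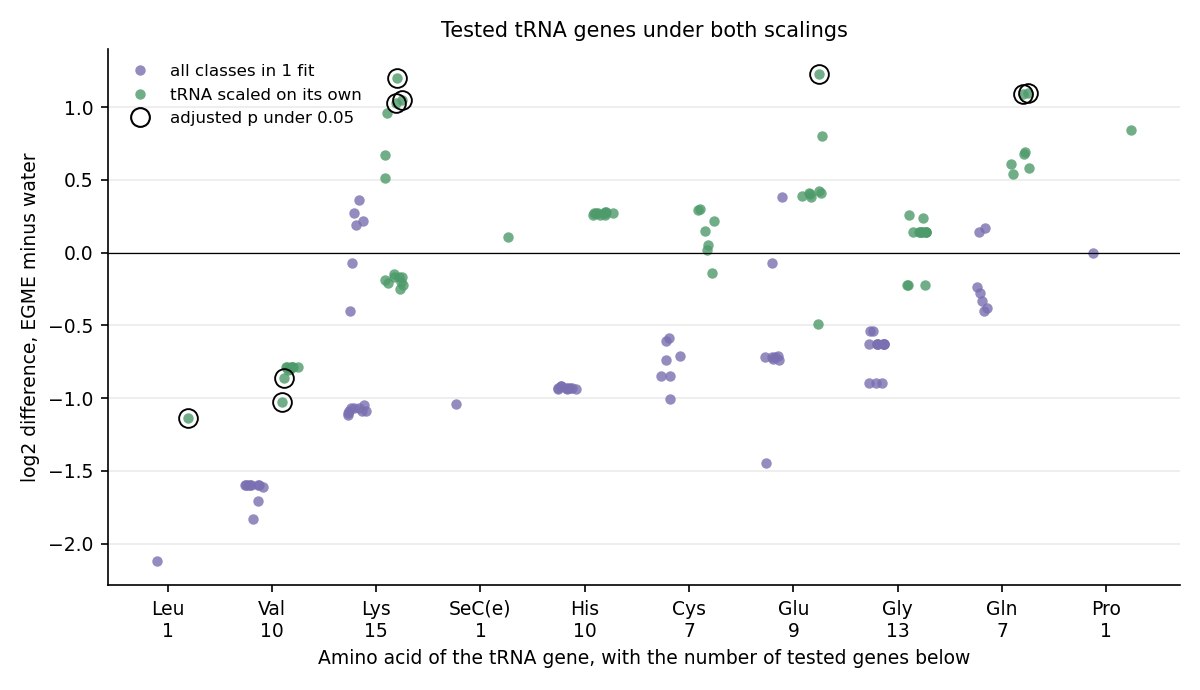
log2 difference, EGME minus water, of the 74 tested tRNA genes by amino acid, with all classes in 1 fit (purple) and with tRNA scaled on its own (green). Points are genes and circles mark the 9 calls; the 10 valine genes lie below 0 on both scales, while most lysine, histidine, glutamate and glycine genes are below 0 on the first only or change little on the second.

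The piRNA class is named for small RNAs that guard the germ line, though sequences listed under such names are also found in blood. Just 4 sequences dominated it. The largest, piR-63455, held 21.3%, 29.2% and 25% of piRNA counts with water and 21.1%, 34.0% and 28.7% with EGME, with piR-63454 close to it in every library (19.7% to 32.9%). Over 20 tested piRNAs 2 were called (10%), both lower. The level of piR-65377 was 7539, 11635 and 9557 CPM of the piRNA total with water and 4530, 5072 and 6357 with EGME, without overlap (-0.85, SE 0.243, edgeR adjusted p = 0.0195). That of piR-64201 was 648, 1743 and 1872 with water and 315, 820 and 528 with EGME, with overlap (-1.36, SE 0.425, edgeR adjusted p = 0.0265). The first kept its call without water library 1 or water library 2, the second without water library 1, and both lost it without any 1 of the other libraries (adjusted p up to 0.743). The scarce piR-64738 was at 1.12 (edgeR adjusted p = 0.0959).

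The misc_RNA class was the largest in the EGME libraries and in water library 1. With near-identical copies counted once it was the largest in every library of both groups. It held 39.3%, 30.3% and 24.9% of counts with water and 51.6%, 43.1% and 46.3% with EGME, without overlap (31.5% ± 7.26 and 47.0% ± 4.29, SD, n = 3, exact permutation p = 0.1, adjusted p = 0.32 over 16 classes). With near-identical copies counted once the means were 47.1% and 57.5%. Set against the miRNA total instead, the class was higher by 0.44 on the log2 scale with overlapping groups (exact permutation p = 0.2). A single transcript made up 99.6% to 99.9% of it. Among the remainder 3 transcripts rose (3 of 23, or 13%). The clearest, ENSRNOT00000086005.1, had 254, 171 and 230 counts with water and 369, 245 and 439 with EGME (0.94, SE 0.228, edgeR adjusted p = 0.00472). It did not pass when water library 1 (0.77, adjusted p = 0.102) or EGME library 3 (0.90, adjusted p = 0.117) was left out, with no filter (0.83, adjusted p = 0.573) or with no scaling factors (0.20, adjusted p = 0.877). The other two calls (0.81 and 0.78) were kept without water library 3 or EGME library 2 and lost without any 1 of the other 4 libraries (adjusted p up to 0.426), and with no scaling factors they were at 0.03 and 0.00. The files do not pair these Ensembl transcripts with gene names.

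Fragments of rRNA made up 0.567% to 1.08% of the water libraries and 0.855% to 1.04% of the EGME libraries (exact permutation p = 0.9). All 29 tested rRNA features were higher with all classes in 1 fit (median 0.30), and 25 with the class scaled on its own (0.23), but 11 of 29 with DESeq2 size factors inside the class. Without EGME library 2 the tested features were 12 higher and 15 lower with all classes in 1 fit (median -0.09), and 13 higher and 14 lower within the class (-0.01). Within the class 14 were higher and 15 lower without EGME library 1, 16 higher and 13 lower without EGME library 3, 12 higher with upper quartile scaling, 14 with no scaling factors, 11 with no filter and 9 of 27 with at least 10 counts in 3 libraries. The 1 call (3.45%) was ENSRNOT00000054268.1, with 5, 6 and 5 counts with water and 7, 20 and 13 with EGME (1.28, SE 0.313, edgeR adjusted p = 0.0205). It was kept without water library 1, lost in the other 4 fits with a library left out that tested it (adjusted p up to 0.203), and rests on few reads.

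As classes, mitochondrial rRNA and tRNA took a smaller share of counts in the EGME libraries, though not in every transcript. The 2 mitochondrial rRNA transcripts summed to 205, 297 and 148 counts with water and 52, 62 and 106 with EGME. As a share of assigned counts this was 0.0236% ± 0.00671 with water and 0.00859% ± 0.00360 with EGME (SD, n = 3, exact permutation p = 0.1, adjusted p = 0.32 over 16 classes), and every EGME library lay below every water library. Set against the miRNA total, the difference was -1.67 on the log2 scale, and it was -1.67 with near-identical copies counted once. The larger transcript, ENSRNOT00000069133.1, had 150, 225 and 106 counts with water and 38, 44 and 71 with EGME (-1.51 over all classes, SE 0.368, edgeR adjusted p = 0.0906). The 19 mitochondrial tRNAs summed to 72, 108 and 63 counts with water and 31, 38 and 52 with EGME, a difference of -1.10 against the miRNA total without overlap (exact permutation p = 0.1). For their share of assigned counts the exact permutation test gave an adjusted p of 0.32 over 16 classes. The most abundant of them, ENSRNOT00000047162.3, had 13, 14 and 14 counts with water and 13, 12 and 14 with EGME.

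The miRNA hairpin transcripts were also lower as a class, at 0.279%, 0.255% and 0.295% of counts with water and 0.217%, 0.155% and 0.230% with EGME (exact permutation p = 0.1, adjusted p = 0.32), while mature miRNAs overlapped (20.4% ± 4.51 and 23.3% ± 6.84, SD, n = 3, exact permutation p = 0.7) and turned direction with near-identical copies counted once (30.4% ± 3.07 and 27.8% ± 6.11). The hairpin means were then 0.375% and 0.224%. Nearly all scaRNA reads came from 1 transcript, ENSRNOT00000081692.1, with 419, 977 and 726 counts with water and 143, 400 and 563 with EGME. These groups overlapped (-0.85 over all classes, edgeR adjusted p = 0.319).

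**Figure D5:**
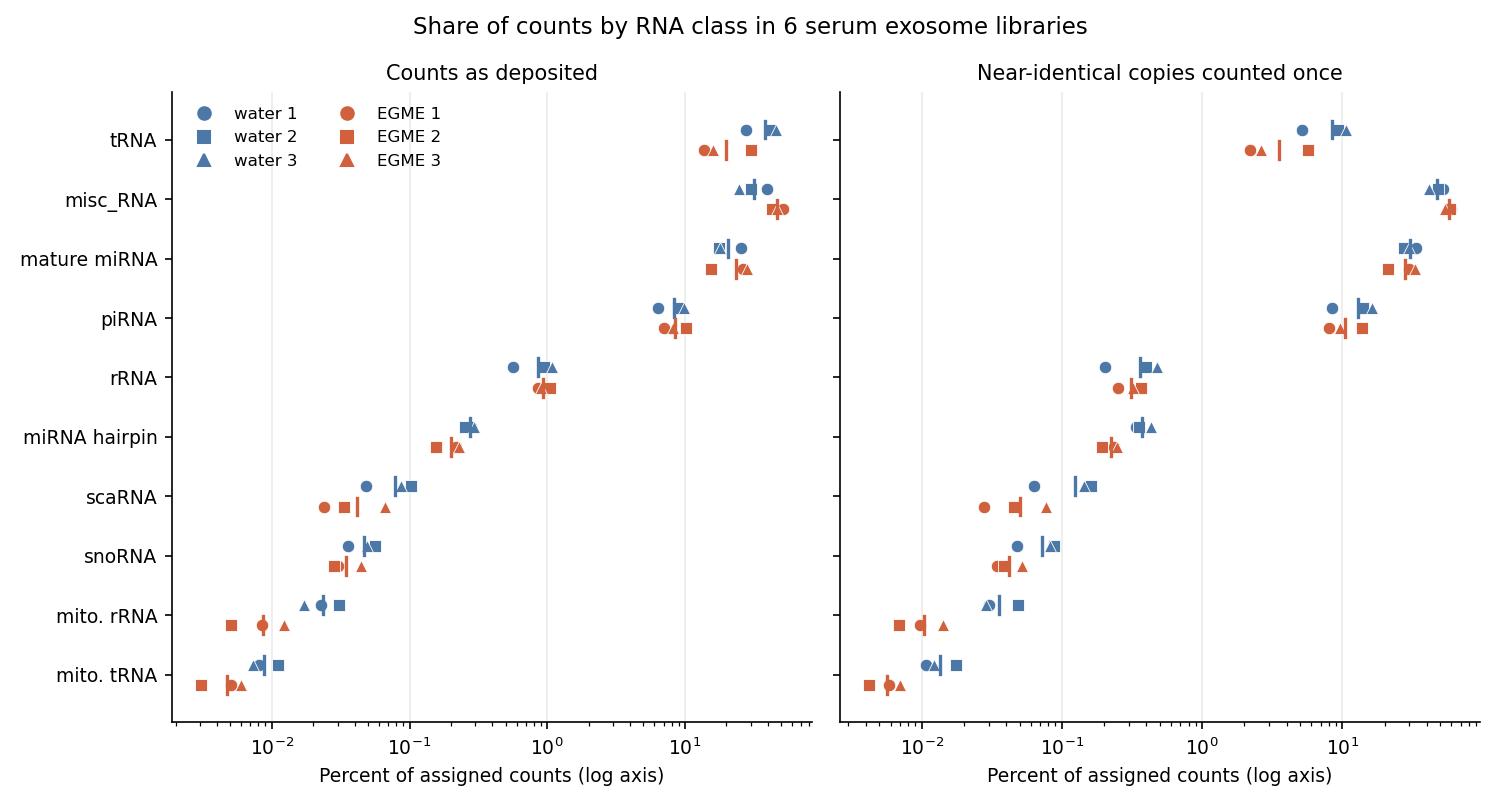
Share of assigned counts held by 10 RNA classes in the 6 libraries, in percent on a log axis, as deposited (left) and with near-identical copies counted once (right). Points are libraries and short vertical bars are group means; misc_RNA is higher and mitochondrial rRNA, mitochondrial tRNA and miRNA hairpin transcripts are lower in all 3 EGME libraries in both panels.

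Features found in 1 group alone were few. Of 3280 features, 6 had a read in every EGME library and in 0 water libraries, and 12 the reverse, with at most 8 counts in all. The 1 mature miRNA among them, miR-351-3p, had 1 count in each water library.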

How the data were processed

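Small RNA was sequenced from serum exosomes with the NEBNext Multiplex Small RNA set on a MiSeq, per the labels' protocols. The authors deposited 1 table of raw counts, whole-number reads per feature, for the water and EGME libraries, and groups and replicate numbers were taken from the library titles. They also deposited a table of normalized signal for 442 features, in which each library's raw counts are multiplied by 1 constant (from 0.896 to 1.23). The submitters' processing notes name edgeR without a version. For the aligner, the build and the handling of reads that fit several gene copies, the answer is not given in the sources used here. The RNA class was read from each feature's name. The tables of the other toxicant were not analysed here.

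The quasi-likelihood test of edgeR 4.0.16 under R 4.3.3 was run on the raw counts (robust fit, TMM factors, filterByExpr at a minimum of 10 counts), once over all classes and once within each class of at least 10 tested features, using the class total as library size. P-values of all class fits were adjusted together by Benjamini-Hochberg (threshold 0.05). Tests were two-sided. For the median feature of each class but the hairpin transcripts, the robust fit pooled the spread between features fully. Most p-values of the class fits thus rest on scatter pooled over the class more than on that of the feature itself. Each standard error was derived from edgeR's test, as the absolute log2 difference divided by the square root of the F statistic. It therefore holds the same pooled scatter as the p-value and is no separate measure of a feature's spread. Standard errors still differed, for example 0.169 for miR-148a-3p and 0.602 for miR-455-3p. Shares were compared by exact permutation over libraries. Intervals are exact (Clopper-Pearson, 95%) and, like the floor of 3 counts, cover counting error only. The scripts were tested on simulated data. Near-identical copies are features of a class with a mean of at least 20 counts whose counts lie within 5 percent or 3 counts of each other in all libraries. Ensembl transcripts (1481) matched 0 gene names.

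Alternatives were DESeq2 1.42.0 size factors and Wald test, upper quartile or no scaling, no filter, at least 10 counts in 3 libraries, limma 3.58.1 on log2 of the authors' signal plus 1, a replicate block, near-identical copies counted once, and each library left out. The members, lists and tests were chosen with earlier results of these data known. Features to name were chosen by rule: all calls, the smallest p of each fit, the most abundant of each class, relatives of called miRNAs by seed or hairpin, list members of highest level or smallest p, and features found in 1 group alone. From these the text gives those its results turn on; miR-34c-5p, miR-741-3p, miR-9a-5p and miR-34a-5p were named besides for their known tissue or regulator.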

Additional observations from a re-analysis of the deposited data

How the results depend on the processing

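Without 1 library, the count of calls over all classes ranged from 0 to 60, that of the class fits from 7 to 31 and that of the miRNAs from 4 to 17, against 0, 28 and 13 with all 6. Over all classes edgeR called 34 features with upper quartile scaling (23 higher, 11 lower; median over all features 0.31 against -0.02), 27 with no scaling factors (3 higher, 24 lower), 12 with no filter and 14 with at least 10 counts in 3 libraries. The DESeq2 Wald test called 20 and limma on the authors' normalized values 12. In the class fits the count was 17 with DESeq2 size factors, 17 with upper quartile scaling, 8 with no scaling factors (3 higher, 5 lower), 7 with no filter (3 higher, 4 lower), 9 with the Wald test (4 higher, 5 lower), 1 with limma and 12 with near-identical copies counted once. With upper quartile scaling 12 of these calls were among the 28, with no filter 6, and in the other settings just named all were. For the miRNAs it was 6 with DESeq2 size factors, 7 with no scaling factors (3 higher, 4 lower), 5 with no filter, 5 with the Wald test and 1 with limma. The trend of the spread could not be estimated well for some fits with no filter, for which edgeR gave warnings. The cause was not tested for the other changes. All 28 calls kept their sign in the alternatives that tested them, but for 1 misc_RNA transcript that was at 0 with no scaling factors.

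The miRNA share of counts, 2.88 percentage points higher with EGME as deposited, was -2.59 with copies counted once. The piRNA share (0.0518 as deposited) was -2.51 with copies counted once, -0.147 as a log2 ratio to the miRNA total, and from -0.956 to 0.769 without 1 library (-0.772 without EGME library 2). The rRNA share (0.0717) was -0.0473 with copies counted once, -0.00245 as that log2 ratio, and from -0.0761 to 0.178 without 1 library. The GlyGCC gene among tRNAs, at 0.14, was -0.38 with no filter.

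Whether the replicate numbers pair the libraries is not stated in the titles, and the counts could not settle it. The deviations of same-numbered libraries from their group means correlated by 0.46, 0.42 and -0.13 over 330 features. Water libraries 1 and 2 correlated best with the EGME library of their own number, and water library 3 with EGME library 2 (0.18). Deviations from a mean of 3 libraries depend on each other, so these correlations can neither show nor exclude a pairing. With the number as a replicate block edgeR called 33 features over all classes (10 higher, 23 lower), 24 in the class fits and 10 miRNAs. Of the 28 calls of the main class fits 17 were kept, and of the 13 miRNAs 7.

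The germ cell miRNAs had at most 9 counts in a library each and were not tested, and with 3 libraries a group shares of counts cannot reach an exact p below 0.1.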
